A study of Mus musculus with 38 samples.

Results

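The 31 genes described here are enriched in astrocytes of the adult mouse brain, and they were chosen as known astrocyte markers, not by a threshold on their measured values. All 31 were present among the 57010 gene identifiers of the deposited count table, and all 31 passed the filter on low counts in every fit. RNA of the medial prefrontal cortex of 38 mice was sequenced. Control mice (SSTCre) carried Cre recombinase driven from the somatostatin gene, which is active in somatostatin interneurons, a class of inhibitory neurons. Mutant mice (SSTCre:γ2f/f) carried the same Cre together with 2 copies of a floxed allele, so both genotypes share the driver. In which cells recombination took place was not measured here. Mice of each genotype and sex were either left unstressed (NS) or stressed for 21 days by varied stressors (chronic variable stress, CVS), and stressed mice were sampled 24 hours after the last stressor. There were 5 unstressed and 6 stressed control males, 3 unstressed and 4 stressed mutant males, and 5 females in each of the 4 corresponding groups.

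Astrocytes clear glutamate and potassium released by neurons, return glutamine to them, store glycogen, and wrap blood vessels with endfeet that carry water and potassium channels. They are coupled to each other through connexin gap junctions, and they secrete lipoproteins and enzymes that act on the extracellular space. In the prefrontal cortex they surround the synapses whose activity chronic stress is known to alter. In RNA from whole tissue, fewer astrocytes and less RNA per astrocyte cannot be told apart.

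Library totals ranged from 17644294 to 27509737 counts, and the 31 genes together took between 1.11 and 1.35% of a library's counts. The lowest count of any of these genes in any library was 170, for Plcd4, and the highest was 92810, for Slc1a2. None of the 74 pairs of libraries within a group was identical, and their counts differed by 3.67 to 16.6 times the sampling noise (chi-square per degree of freedom). Levels are given as CPM, a gene's share of the counts of its library scaled to a fixed total after normalization. In 3 male libraries Cdhr1, a gene abundant in the olfactory bulb, stood at 16.6 (control CVS replicate 1), 25.8 and 27.5 CPM (mutant NS replicates 2 and 3), against 1.70 to 5.20 in the others. For most members named in a comparison that these 3 libraries enter, the difference is given with and without them. Other members, the markers of other cells and the further gene lists are given only with them. Without them 1 unstressed mutant male is left, assumed to vary like the other groups. Earlier results of these data left the genotype of mutant CVS male replicate 1 in doubt. Comparisons that it enters are also given without it, some of them only in part. Replicates are separate animals. A p-value of a group comparison sets the difference against the spread between animals, which was estimated with information shared over the groups of a fit and over genes. CPM were scaled within each sex, so levels were not compared between the sexes. Where groups are said not to overlap, the share of all genes that separate the same groups was not counted. Groups this small can separate by chance. Comparisons with unstressed mutant males rest on 3 animals, of which replicates 2 and 3 have high Cdhr1.

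Promoter sequences of 5 of the 6 members called lower in mutants are shown first (Atp1b2 has no entry in the table used). A link between these sequences and the genotype differences was not tested. Each is the 250 bases before the annotated transcription start, on the strand of the gene, from RefSeq on GRCm38.p6. Capitals mark the half-site of nuclear factor I (TTGGC, or GCCAA on the other strand), a transcription factor family known for its role in astrocyte development. S100b lies at chr10:76253586-76253835, Slc7a10 at chr7:35186135-35186384, Htra1 at chr7:130935953-130936202 and Slc1a2 at chr2:102706188-102706437, all on the plus strand, and Acsbg1 at chr9:54661886-54662135 on the minus strand.
S100b: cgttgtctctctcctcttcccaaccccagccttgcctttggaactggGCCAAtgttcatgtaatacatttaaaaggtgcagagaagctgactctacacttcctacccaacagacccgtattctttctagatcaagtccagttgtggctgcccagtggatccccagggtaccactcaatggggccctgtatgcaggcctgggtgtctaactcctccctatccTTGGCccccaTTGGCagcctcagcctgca
Slc7a10: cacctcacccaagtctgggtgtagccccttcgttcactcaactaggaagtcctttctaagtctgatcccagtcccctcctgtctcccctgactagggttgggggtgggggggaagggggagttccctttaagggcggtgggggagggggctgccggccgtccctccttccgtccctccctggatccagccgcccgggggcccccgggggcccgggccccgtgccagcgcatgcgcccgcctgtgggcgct
Htra1: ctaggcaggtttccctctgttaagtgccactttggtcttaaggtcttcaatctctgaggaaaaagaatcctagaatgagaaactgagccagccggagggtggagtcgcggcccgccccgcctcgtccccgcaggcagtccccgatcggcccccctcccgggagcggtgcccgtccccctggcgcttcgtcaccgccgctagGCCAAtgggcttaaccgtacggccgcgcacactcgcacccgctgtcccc
Acsbg1: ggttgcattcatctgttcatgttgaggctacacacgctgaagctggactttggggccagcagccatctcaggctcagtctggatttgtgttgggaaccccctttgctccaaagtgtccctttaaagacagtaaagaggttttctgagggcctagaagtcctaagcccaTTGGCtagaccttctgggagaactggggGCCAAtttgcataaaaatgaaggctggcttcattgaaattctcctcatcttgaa
Slc1a2: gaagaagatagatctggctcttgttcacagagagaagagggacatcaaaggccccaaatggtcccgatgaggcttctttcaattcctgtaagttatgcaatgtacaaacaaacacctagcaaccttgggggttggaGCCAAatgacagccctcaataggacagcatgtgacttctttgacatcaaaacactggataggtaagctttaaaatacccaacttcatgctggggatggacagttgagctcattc
The S100b window held 3 half-sites, the Acsbg1 window held 2, the Htra1 and Slc1a2 windows held 1 each, and the Slc7a10 window held 0. The Slc7a10 window was the richest of the 5 in G and C (69.6%) and held 2 GC boxes (GGGCGG, searched on both strands), and the Slc1a2 window was the poorest (44.8%), against a median of 52.4% over all promoter windows. Member windows on 1 chromosome were left out, while that chromosome stayed among all windows. Of the 31 members 26 had a promoter entry apart from these, with 34 windows in all. The half-site was present in 47.1% of these windows and in 41.6% of all 32536 windows, so a window with the half-site was about as common elsewhere. The core of the SOX motif (ACAAT, both strands) was in 14.7% of member windows and 27.4% of all windows, the CCAAT box (CCAAT, which can share letters with the half-site) in 41.2 and 33.8%, the GC box in 41.2 and 33%, the TATA box (TATAAA) in 11.8 and 12.3%, and the E-box (CACGTG) in 5.88 and 6.04%. The palindromic glucocorticoid response element was in 0 of the 34 member windows and in 0.39% of all windows. These matches describe letters in a window and not bound sites.

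Levels of the 31 genes in unstressed controls spanned more than 2 orders of magnitude per unit of transcript length. Values are CPM divided by the summed exon length in kilobases, as the mean ± SD over animals. Apoe, the main lipoprotein of the brain, had the highest level in males, 608 ± 57.1 CPM per kilobase (n = 5). It was followed by Glul, glutamine synthetase, at 553 ± 30.3 and by Cst3, the protease inhibitor cystatin C, at 533 ± 38.6, and these 3 lay within or near each other's spread. The glutamate transporter Slc1a2 came next at 271 ± 12.6, above the glycolytic enzyme Aldoc at 223 ± 12.1 and the lipoprotein Clu at 196 ± 9.73. Ndrg2 at 161 ± 8.84 and the metallothionein Mt3 at 155 ± 11.0 could not be separated from each other. Atp1b2, a subunit of the sodium pump, stood at 105 ± 2.73, the second glutamate transporter Slc1a3 at 80.5 ± 5.58 and the receptor Gpr37l1 at 74.2 ± 3.24.

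The calcium-binding protein S100b stood at 62.6 ± 1.48 CPM per kilobase in unstressed control males. Mlc1, a membrane protein of the endfoot, the lipid receptor S1pr1 and the secreted protease Htra1 followed at 53.4 ± 3.87, 53.3 ± 5.29 and 52.5 ± 4.86, and did not differ beyond their spread. Then came the acyl-CoA synthetase Acsbg1 (40.1 ± 2.22), the potassium channel Kcnj10 (35.9 ± 2.16), the neurotensin receptor Ntsr2 (28.3 ± 1.83) and the adhesion protein Hepacam (23.4 ± 2.23). The next 5 overlapped each other: the connexin Gjb6 at 21.5 ± 3.08, the growth factor receptor Fgfr3 at 19.0 ± 1.74, the connexin Gja1 at 18.6 ± 0.297, the water channel Aqp4 at 17.9 ± 1.14 and the intermediate filament Gfap at 17.0 ± 2.23. Below them were Ppp1r3c, which targets a phosphatase to glycogen, at 14.5 ± 1.41, the folate enzyme Aldh1l1 at 14.1 ± 0.590, the amino acid transporter Slc7a10 at 13.5 ± 0.967 and the bicarbonate transporter Slc4a4 at 12.8 ± 0.454. The transcription factor Sox9 (9.95 ± 0.861), the proteoglycan Gpc5 (9.09 ± 0.532) and the phospholipase Plcd4 (1.77 ± 0.148) were lowest. In unstressed control females Apoe was again highest, at 662 ± 24.1, with Cst3 at 577 ± 35.1 and Glul at 488 ± 27.0, and Plcd4 again lowest, at 1.62 ± 0.229.

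**Figure D1:**
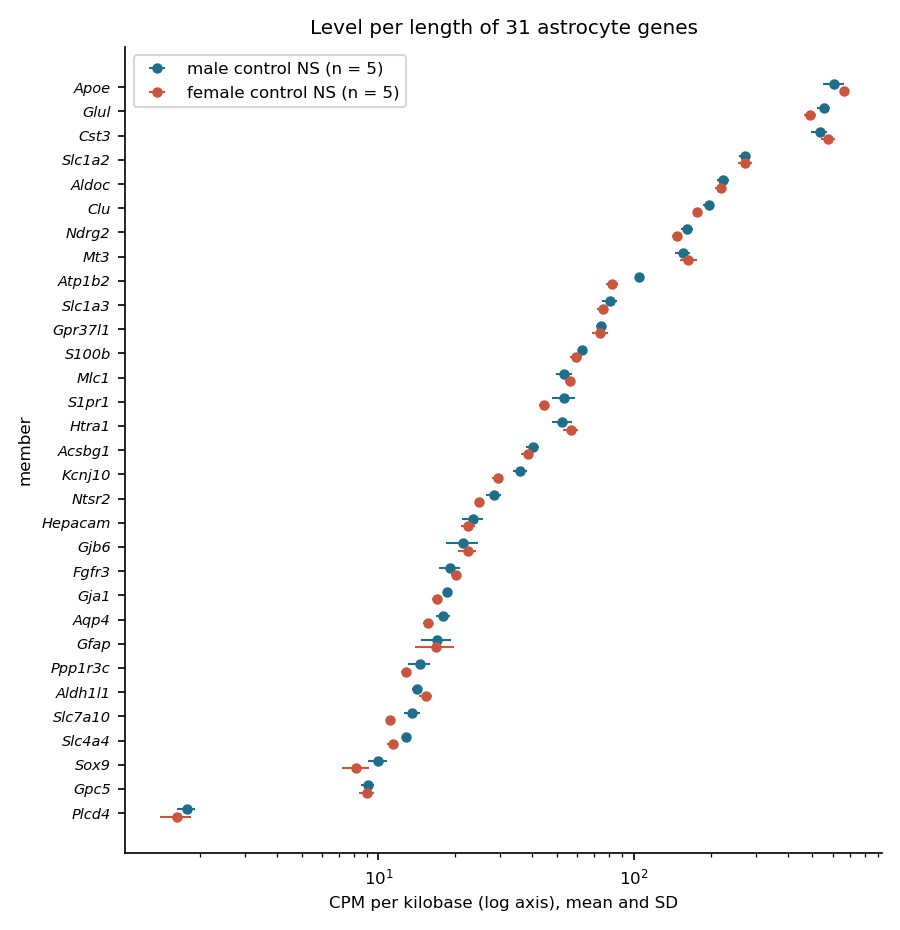
Level of each of the 31 genes in unstressed controls, in CPM per kilobase on a log axis; points are means and bars SDs over 5 males (blue) and 5 females (red), and bars shorter than the point are hidden by it. Apoe, Glul and Cst3 sit at the top and Plcd4 at the bottom in both sexes.

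The genes differed in how much they varied between animals of one group. The median coefficient of variation over the 8 groups was lowest for Ntsr2 (4.36%), Clu (4.40%) and Slc1a2 (4.57%). It was highest for Gfap (16.3%), followed by Sox9 (11.2%), Kcnj10 (10.4%) and Plcd4 (10.3%). These values include counting noise, which weighs most on Plcd4, with 170 to 306 counts per library. Gfap ranged from 6.48% in one group to 36.4% in another, and its lowest library, a stressed mutant male at 29.4 CPM, stood below the 65.7 to 81.4 CPM of the other 3 in that group.

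Which of these genes differ between mutants and controls was tested on all 38 libraries, as the mutant minus control difference averaged over both sexes and both stress conditions. S100b, Slc7a10, Htra1, Acsbg1, Slc1a2 and Atp1b2 were lower in mutants, by 5.28 to 10.9%, and none of the 31 was called higher. These 6 are a calcium-binding protein, a transporter of D-serine and glycine, a secreted protease, an enzyme of fatty acid activation, the main glutamate transporter of the forebrain and a sodium pump subunit. Of the 31 genes 30 had a negative difference, with a median log2 fold change of −0.055 against −9.4e-05 over all 17671 genes tested. Without the 3 libraries of high Cdhr1 the median over the 31 was −0.043. Calls are those of edgeR's quasi-likelihood test at 0.05 after the p-values of all genes were adjusted (Benjamini-Hochberg), by which 0.753% of all genes were called lower and 0.340% higher. At an unadjusted p under 0.05, 12 of the 31 were lower and 0 higher, where all genes gave 6.12% and 5.09%. The members had been chosen with results of these data known.

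**Figure D2:**
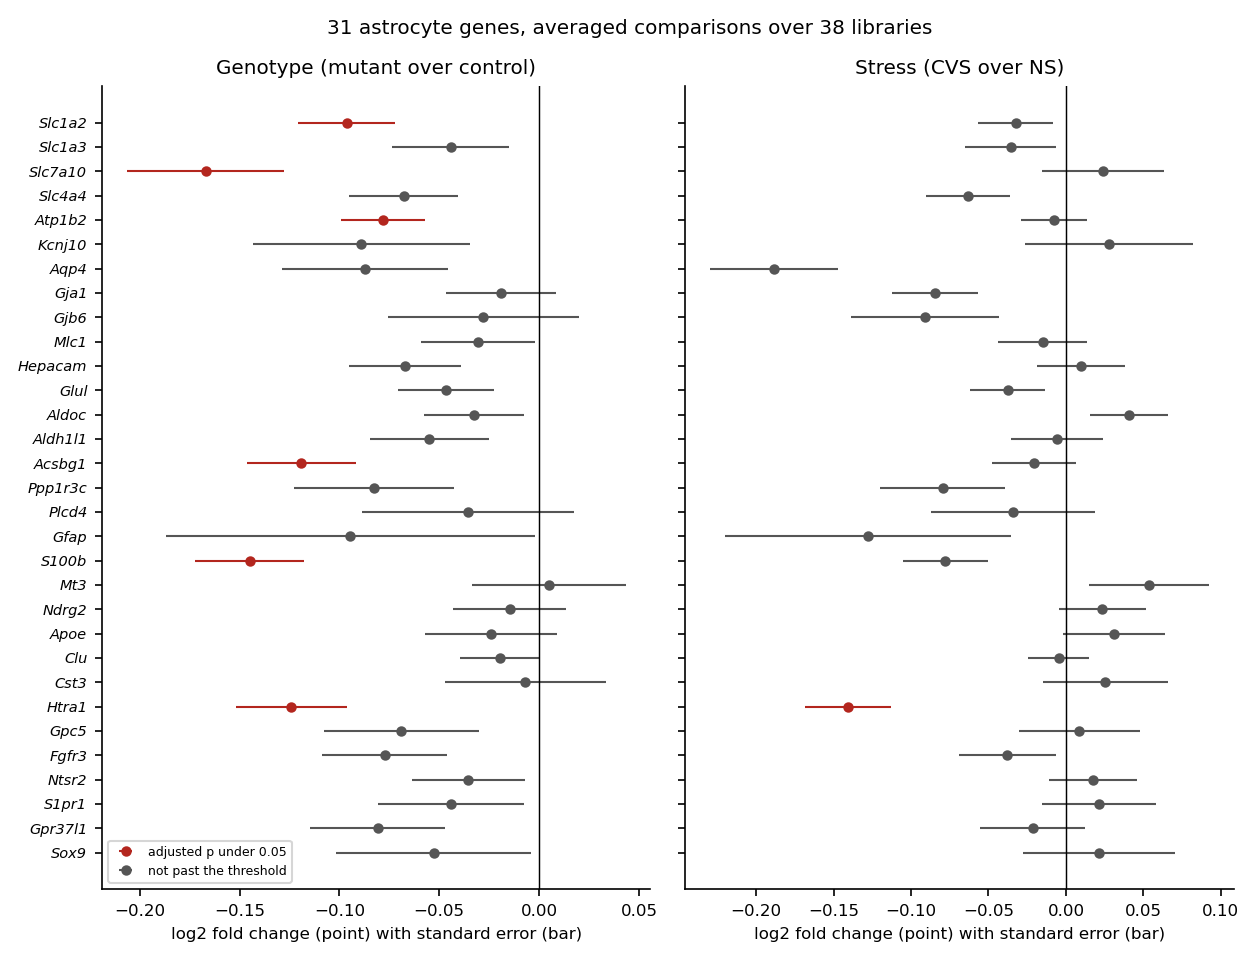
Log2 fold change (points) with standard error (bars) of each of the 31 genes for mutant over control (left) and CVS over NS (right), averaged over the other factors in 38 libraries; red marks an adjusted p under 0.05. On the left 30 of 31 points lie below 0 and 6 are red; on the right only Htra1 is red.

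Among the 7 transporters and channels all 7 differences were negative and 3 were called. Slc7a10 exchanges D-serine and glycine across the astrocyte membrane. It stood at 27.1, 28.3, 26.1, 30.7 and 30.6 CPM in unstressed control males and at 24.4, 24.2 and 23.6 in unstressed mutant males. In unstressed females it stood at 22.4, 23.6, 24.6, 23.3 and 23.5 in controls and at 19.1, 17.1, 20.4, 18.9 and 19.1 in mutants. The unstressed genotypes did not overlap in either sex, though unstressed mutant male replicates 2 and 3 are libraries of high Cdhr1. Under stress it stood between 23.2 and 29.0 with a median of 25.0 in control males and at 24.7, 22.1, 24.6 and 29.2 in mutant males, and at 24.5, 21.5, 24.9, 25.0 and 21.6 in control females and at 25.4, 22.6, 22.2, 22.1 and 16.8 in mutant females. The stressed groups overlapped. Averaged over all groups the log2 fold change was −0.17 ± 0.0394 (10.9% lower, edgeR adjusted p = 0.0174). Without the 3 libraries of high Cdhr1 it was −0.16 with an adjusted p of 0.133.

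Slc1a2 (GLT-1) takes up most of the glutamate released in the forebrain. It stood at 3435, 3592, 3349, 3678 and 3744 CPM in unstressed control males and at 3520, 3231 and 2835 in unstressed mutant males, where 1 mutant reached into the control range. In stressed males it lay between 3244 and 3487 with a median of 3399 in controls and at 3102, 3187, 2989 and 3137 in mutants, without overlap. Control females stood at 3404, 3855, 3389, 3466 and 3833 unstressed and at 3031, 3541, 3586, 3711 and 3333 stressed. Mutant females stood at 3502, 3147, 3215, 3339 and 3446 unstressed and at 3577, 3390, 3509, 3397 and 3304 stressed, overlapping the controls in both conditions. The log2 fold change averaged over all groups was −0.096 ± 0.0244 (6.46% lower, edgeR adjusted p = 0.0354). Without the 3 libraries of high Cdhr1 it fell short of the threshold (−0.063, adjusted p 0.377).

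Atp1b2 is the β2 subunit of the sodium and potassium pump and also acts as an adhesion molecule on glia. It stood at 432.0, 420.1, 414.8, 441.5 and 436.0 CPM in unstressed control males and at 409.5, 410.9 and 365.4 in unstressed mutant males. In stressed males it lay between 415.2 and 447.4 with a median of 424.2 in controls and at 411.1, 401.8, 403.8 and 376.2 in mutants, so the male genotypes did not overlap in either condition. Unstressed females stood at 317.9, 359.5, 320.2, 329.8 and 347.4 in controls and at 322.9, 318.7, 295.3, 335.7 and 315.1 in mutants. Stressed females stood at 302.2, 335.8, 340.3, 325.4 and 317.1 and at 320.0, 313.6, 339.6, 325.6 and 298.8, and the female genotypes overlapped. Averaged over all groups, the log2 fold change was −0.078 ± 0.0210 (5.28% lower, edgeR adjusted p = 0.0493), close to the threshold, and −0.062 with an adjusted p of 0.340 without the 3 libraries of high Cdhr1.

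The other 4 transporters and channels did not pass. The bicarbonate transporter Slc4a4 stood at −0.068 ± 0.0274 (adjusted p = 0.292 by edgeR's quasi-likelihood test). Aqp4 stood at −0.087 ± 0.0415, Kcnj10, the inward rectifier that buffers potassium, at −0.089 ± 0.0543, and Slc1a3 (GLAST) at −0.044 ± 0.0292. Aqp4 did not overlap between unstressed control males (104.7 to 119.8 CPM) and unstressed mutant males (82.7 to 101.9 CPM), and Kcnj10 did not overlap between unstressed control females (145.6 to 167.3 CPM) and unstressed mutant females (127.1 to 142.5 CPM).

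The 4 genes of junctions and endfoot adhesion all had negative differences and none passed. Hepacam, the adhesion protein that holds Mlc1 at the membrane, stood at −0.067 ± 0.0282 (edgeR adjusted p = 0.328). Mlc1 stood at −0.031 ± 0.0285, and the connexins Gjb6 and Gja1 at −0.028 ± 0.0479 and −0.019 ± 0.0277.

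All 6 metabolic enzymes had negative differences, and Acsbg1 was called. Acsbg1 activates long-chain fatty acids by joining them to coenzyme A. It stood at 138.8, 146.6, 134.0, 152.5 and 151.1 CPM in unstressed control males and at 133.5, 132.1 and 118.7 in unstressed mutant males. Unstressed females stood at 131.7, 149.0, 133.8, 133.3 and 142.9 in controls and at 129.2, 127.5, 111.9, 128.8 and 123.4 in mutants, so every unstressed mutant lay below every unstressed control of its sex. Under stress it lay between 128.3 and 142.6 with a median of 135.4 in control males and at 130.6, 133.3, 118.7 and 127.6 in mutant males. Stressed females stood at 125.5, 135.6, 137.0, 139.3 and 130.8 in controls and at 140.8, 132.5, 135.6, 128.4 and 106.6 in mutants, and the stressed groups overlapped in both sexes. The log2 fold change averaged over all groups was −0.12 ± 0.0272 (7.92% lower, edgeR adjusted p = 0.0138), and −0.11 with an adjusted p of 0.152 without the 3 libraries of high Cdhr1. The others did not pass: Ppp1r3c stood at −0.083 ± 0.0402, Aldh1l1 at −0.055 ± 0.0299, Glul at −0.047 ± 0.0242, Plcd4 at −0.036 ± 0.0530 and Aldoc at −0.033 ± 0.0251.

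Of the 4 genes of the cytoskeleton and of calcium and metal binding, S100b was called. S100b binds calcium inside astrocytes and is also secreted, and mature oligodendrocytes express it too. It stood at 89.5, 92.7, 92.8, 95.5 and 93.9 CPM in unstressed control males and at 83.9, 92.2 and 76.7 in unstressed mutant males. Stressed males lay between 76.5 and 93.7 with a median of 81.2 in controls and at 70.4, 77.9, 74.9 and 73.6 in mutants. The male genotypes overlapped in both conditions, by 1 mutant in each. Unstressed females stood at 87.8, 89.3, 94.0, 80.9 and 89.9 in controls and at 78.7, 75.7, 68.9, 79.1 and 78.9 in mutants, without overlap. Stressed females stood at 80.9, 81.3, 89.8, 86.9 and 79.6 in controls and at 84.2, 87.0, 77.9, 81.1 and 74.6 in mutants, with overlap. Averaged over all groups, the log2 fold change was −0.15 ± 0.0275 (9.56% lower, edgeR adjusted p = 0.00166), and −0.15 with an adjusted p of 0.0124 without the 3 libraries of high Cdhr1. Gfap stood at −0.095 ± 0.0923, Ndrg2 at −0.015 ± 0.0283, and Mt3, which binds zinc, at 0.0048 ± 0.0385, the one positive value among the 31.

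Of the 5 secreted and matrix proteins, all negative, Htra1 was called. Htra1 is a serine protease that cleaves matrix proteins. It stood at 145.8, 156.2, 129.8, 157.5 and 166.5 CPM in unstressed control males and at 134.6, 148.7 and 125.1 in unstressed mutant males, with overlap. Stressed males lay between 128.9 and 149.8 with a median of 134.8 in controls and at 127.6, 119.6, 127.2 and 120.6 in mutants, without overlap. Unstressed females stood at 159.6, 177.9, 148.7, 161.6 and 167.8 in controls and at 136.6, 150.1, 143.6, 156.0 and 137.3 in mutants. Stressed females stood at 136.1, 151.5, 144.8, 143.5 and 128.2 and at 137.4, 138.3, 136.6, 134.8 and 142.0, and the female genotypes overlapped in both conditions. The log2 fold change averaged over all groups was −0.12 ± 0.0279 (8.24% lower, edgeR adjusted p = 0.0116), and −0.13 with an adjusted p of 0.0490 without the 3 libraries of high Cdhr1. Gpc5 stood at −0.069 ± 0.0388, Apoe at −0.024 ± 0.0329, Clu at −0.020 ± 0.0198 and Cst3 at −0.0070 ± 0.0403.

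The 4 receptors and the transcription factor Sox9 were all negative and none passed. Gpr37l1 stood at −0.081 ± 0.0339 (edgeR adjusted p = 0.335) and Fgfr3 at −0.077 ± 0.0313 (edgeR adjusted p = 0.300). Sox9 stood at −0.053 ± 0.0489, S1pr1 at −0.044 ± 0.0366 and Ntsr2 at −0.035 ± 0.0284.

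**Figure D3:**
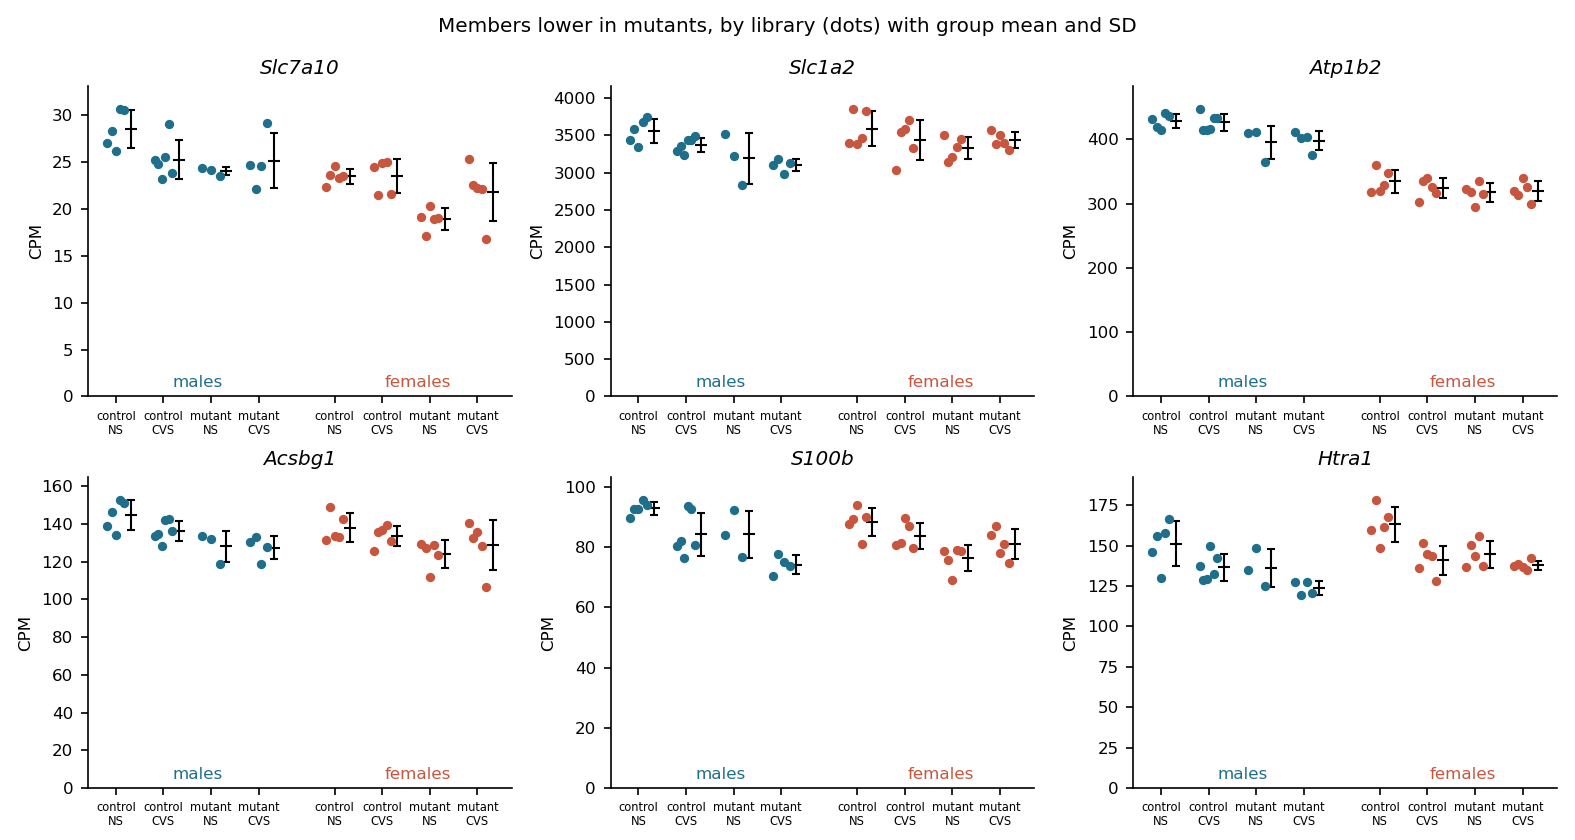
CPM of the 6 genes called lower in mutants, by library (dots) with the group mean and SD (black), for males (blue, left) and females (red, right) in the 4 groups of genotype and stress; every vertical axis starts at 0. The groups lie close together, and mutant NS values are lowest relative to control NS for Slc7a10.

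The calls did not rest equally on all libraries. S100b and Slc7a10 were called in all 38 runs that left out 1 library in turn. Acsbg1 and Htra1 were called in 37, and both were lost without mutant NS male replicate 3. Without that library 2 of the 31 remained called, S100b and Slc7a10. Slc1a2 was called in 23 of the 38 runs, and was lost without any one of control NS male replicates 2 and 5, control CVS male replicate 5, mutant NS male replicate 3, mutant CVS male replicates 1 and 3, control NS female replicates 2 and 5, control CVS female replicates 2, 3 and 4, mutant NS female replicates 2 and 3, and mutant CVS female replicates 4 and 5. Atp1b2 was called in 13 runs, and was lost without any one of control NS male replicates 1, 2, 4 and 5, control CVS male replicates 1, 5 and 6, mutant NS male replicate 3, mutant CVS male replicates 2, 3 and 4, control NS female replicates 2, 4 and 5, control CVS female replicates 2, 3 and 4, mutant NS female replicates 1, 2, 3 and 5, and mutant CVS female replicates 1, 2, 4 and 5. Without the 3 libraries of high Cdhr1 S100b and Htra1 remained. Without mutant CVS male replicate 1, 5 were called and Slc1a2 was not (adjusted p 0.0540). Of 8 alternatives other than these runs, Slc1a2 was called in 3 and Atp1b2 in 4. Slc1a2 was not called with raw library totals, with no filter or by limma voom, and Atp1b2 was not with relative log expression factors, raw library totals or no filter.

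Markers of other cells were measured beside these genes. All 10 markers of mature oligodendrocytes had negative genotype differences, with a median of −0.14. None passed, 7 were lower at an unadjusted p under 0.05, and Mog, a myelin protein, stood at −0.24 ± 0.0679 (edgeR adjusted p = 0.0663). Their summed level was 1541 to 1838 CPM in unstressed control males, 1150 to 1882 in unstressed mutant males, 1213 to 1452 in unstressed control females and 1115 to 1372 in unstressed mutant females. Under stress it was 1363 to 1980 CPM in control males, 1123 to 1901 in mutant males, 1130 to 1298 in control females and 1052 to 1301 in mutant females, so the groups overlapped in each sex. All 10 microglial markers (median −0.053) and all 10 endothelial and pericyte markers (median −0.077) were negative too, with none called. At an unadjusted p under 0.05, 2 of the microglial and 1 of the endothelial and pericyte markers were lower. Of 10 pan-neuronal markers 6 were negative (median −0.013) and none was called. None of the markers in these 4 lists was at 0 in a whole sex. The part of oligodendrocyte RNA in the S100b difference was not tested.

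Within each sex and stress condition, no gene of the 31 passed the threshold for genotype by edgeR. In unstressed males 30 of 31 differences were negative, with a median log2 fold change of −0.11 (all genes −0.0015), and 9 were lower and 0 higher at an unadjusted p under 0.05, against 3.43% and 2.70% of all genes. Of all genes 0.00581% were called lower and 0.0116% higher there after adjustment, and DESeq2 and limma voom called none of the 31. The 4 with the smallest p were Ppp1r3c at −0.31 ± 0.0934, Acsbg1 at −0.17 ± 0.0537, Slc1a2 at −0.16 ± 0.0496 and Slc7a10 at −0.25 ± 0.0831, each with an edgeR adjusted p of 0.665. With the 3 libraries of high Cdhr1 left out, Ppp1r3c stood at −0.22, Acsbg1 at −0.12, Slc1a2 at −0.017 and Slc7a10 at −0.23, and the median over the 31 at −0.079, so little of the Slc1a2 difference was left. Leaving out 1 library in turn moved Slc1a2 between −0.23 and −0.076. All 10 markers of mature oligodendrocytes (median −0.17), 8 of 10 microglial (median −0.11) and 9 of 10 endothelial and pericyte markers (median −0.12) were negative in the same comparison, and their part in these differences was not tested. Ppp1r3c directs protein phosphatase 1 to glycogen and so promotes glycogen synthesis. It stood at 35.7, 37.4, 39.8, 38.8 and 45.8 CPM in unstressed control males and at 33.8, 35.3 and 26.4 in unstressed mutant males, without overlap. In the other male groups it lay between 31.4 and 40.6 with a median of 34.5 in stressed controls and at 35.1, 33.5, 30.2 and 29.1 in stressed mutants.

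In stressed males 24 of 31 differences were negative, with a median of −0.050. Before adjustment 5 were lower and 0 higher at p under 0.05, against 3.88% and 3.74% of all genes. After adjustment 0.0349% of all genes were called lower and 0.0174% higher, and none of the 31 by edgeR, DESeq2 or limma voom. S100b stood at −0.18 ± 0.0560 (edgeR adjusted p = 0.426), Slc1a2 at −0.12 ± 0.0438, Atp1b2 at −0.099 ± 0.0394 and Htra1 at −0.14 ± 0.0587. Without mutant CVS male replicate 1 they stood at −0.16, −0.12, −0.11 and −0.15, and without the 3 libraries of high Cdhr1 at −0.20, −0.13, −0.086 and −0.14. All 10 oligodendrocyte markers were negative here too (median −0.24).

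In unstressed females 29 of 31 differences were negative, with a median of −0.083 (all genes 0.0018). Before adjustment 10 were lower and 0 higher at p under 0.05, against 4.62% and 3.45% of all genes, and after adjustment 0.0852% of all genes were called lower, 0.0426% higher, and none of the 31. S100b stood at −0.21 ± 0.0496 (edgeR adjusted p = 0.0644), Slc7a10 at −0.31 ± 0.0770 (edgeR adjusted p = 0.105), Htra1 at −0.17 ± 0.0459 (edgeR adjusted p = 0.127) and Aldh1l1 at −0.15 ± 0.0537. DESeq2 called 2 of the 31, Slc7a10 and S100b, and limma voom called none. The shares of all genes above are those of edgeR, and the share called by DESeq2 is not given here. Of the markers of other cells, 8 of 10 for mature oligodendrocytes (median −0.16), 9 of 10 for microglia (median −0.071) and 8 of 10 for endothelium and pericytes (median −0.20) were negative. The mean summed level of glutamatergic neuron markers was 8126 CPM in unstressed control and 7677 in unstressed mutant females. For pan-neuronal markers it was 8274 and 8162, and for meningeal markers 64.6 and 80.9. The part of these cells in the astrocyte differences was not tested. S100b was called by edgeR when control NS female replicate 4, the lowest control at 80.9 CPM, was left out. Kcnj10 stood at 155.5, 167.3, 163.9, 145.6 and 159.6 CPM in unstressed control females and at 127.1, 138.3, 138.8, 140.0 and 142.5 in unstressed mutant females.

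In stressed females 13 of 31 differences were negative, with a median of 0.0060. Only Ppp1r3c was higher at an unadjusted p under 0.05, and 0 were lower, against 3.46% higher and 3.63% lower among all genes. Among all genes 0.0122% were called higher and 0.0122% lower after adjustment, and none of the 31 by edgeR, DESeq2 or limma voom. Ppp1r3c stood at 0.15 ± 0.0689 (edgeR adjusted p = 0.689), Clu at 0.067 ± 0.0352, Gfap at 0.20 ± 0.128 and Kcnj10 at −0.12 ± 0.0799. Ppp1r3c stood at 27.4, 33.9, 31.1, 33.0 and 29.6 CPM in stressed control females and at 35.5, 29.8, 33.8, 36.1 and 36.5 in stressed mutant females, with overlap, and at 35.2, 33.6, 36.5, 33.1 and 36.2 and at 28.1, 34.1, 33.6, 37.9 and 35.9 in the unstressed female groups. Of the 31 genes 11 had a negative genotype difference in all 4 settings, namely Acsbg1, Aldh1l1, Atp1b2, Fgfr3, Gpc5, Gpr37l1, Htra1, S100b, Slc1a2, Slc4a4 and Slc7a10.

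Which of the genes differ after chronic stress was tested in the same way, as the CVS minus NS difference averaged over both sexes and genotypes. Htra1 was lower in stressed mice, by 9.27%, and no other member passed. Aqp4, the water channel of astrocyte endfeet, stood lower by 12.2% without passing. Of the 31 genes 19 had a negative and 12 a positive difference, with a median log2 fold change of −0.015 (all genes 0.0028). By edgeR's adjusted rule 0.0113% of all 17671 genes were called lower and 0.00566% higher, and at an unadjusted p under 0.05 5 of the 31 were lower and 0 higher, against 4.40% and 4.96% of all genes. The log2 fold change of Htra1 was −0.14 ± 0.0278 (edgeR adjusted p = 0.0406). Its call held in 15 of 38 runs that left out 1 library in turn, and was lost without any one of control NS male replicates 2, 4 and 5, control CVS male replicates 2, 3 and 5, mutant NS male replicates 1 and 2, mutant CVS male replicates 2 and 4, control NS female replicates 1, 2 and 5, control CVS female replicates 1, 3 and 5, mutant NS female replicates 2, 3 and 4, and mutant CVS female replicates 1, 2, 3 and 4. It was also lost by limma voom (adjusted p 0.0517) and with 1 surrogate variable in the fit (adjusted p 0.0944). It was kept without mutant CVS male replicate 1 (−0.14, edgeR adjusted p 0.0378). Without the 3 libraries of high Cdhr1 it was called (adjusted p 0.0452), and so was Aqp4. Beside it, 9 of 10 endothelial and pericyte markers (median −0.076) and 8 of 10 markers of mature oligodendrocytes (median −0.049) had negative stress differences. None of these was called, and their part in the Htra1 difference was not tested.

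The library values of Htra1 given above show where this difference lay. Control females stood at 163 ± 10.8 CPM (SD, n = 5) unstressed and 141 ± 8.92 (SD, n = 5) stressed, and control males at 151 ± 14.0 (SD, n = 5) and 137 ± 8.32 (SD, n = 6). Mutant males stood at 136 ± 11.9 (SD, n = 3) and 124 ± 4.22 (SD, n = 4), and mutant females at 145 ± 8.33 (SD, n = 5) and 138 ± 2.66 (SD, n = 5). The stressed mean was lower in all 4 strata, and the ranges overlapped in each.

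Aqp4 stood at 93.5, 98.8, 100.6, 92.3 and 101.1 CPM in unstressed control females and at 71.8, 75.8, 82.4, 96.8 and 78.5 in stressed control females, of which 4 of 5 lay below every unstressed one. Mutant females stood at 94.2, 98.2, 84.1, 89.0 and 96.0 unstressed and at 85.2, 79.1, 81.5, 86.9 and 90.8 stressed. Control males stood at 109.5, 118.4, 105.6, 104.7 and 119.8 unstressed and lay between 79.0 and 108.1 with a median of 97.4 stressed. Mutant males stood at 101.5, 101.9 and 82.7 unstressed and at 96.7, 93.9, 85.9 and 72.4 stressed. Averaged over all groups, the log2 fold change was −0.19 ± 0.0414 (edgeR adjusted p = 0.0820), and DESeq2 called it.

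Gja1 (connexin 43), the main gap junction protein of astrocytes, stood at 186.8, 190.5, 193.6, 189.7 and 194.3 CPM in unstressed control males and lay between 155.1 and 187.6 with a median of 169.9 in stressed control males. Unstressed control males were tightly grouped, and 1 of the 6 stressed ones fell within their range. Mutant males stood at 191.3, 197.3 and 159.8 unstressed and at 173.8, 172.5, 177.0 and 173.8 stressed. Control females stood at 173.6, 184.3, 173.6, 161.5 and 178.0 unstressed and at 154.9, 159.1, 173.5, 186.2 and 157.4 stressed, and mutant females at 171.0, 162.9, 161.2, 170.5 and 183.6 and at 182.8, 155.1, 154.2, 164.6 and 168.5, all overlapping. The log2 fold change averaged over all groups was −0.084 ± 0.0277 (edgeR adjusted p = 0.328). S100b at −0.078 ± 0.0274 and Slc4a4 at −0.063 ± 0.0273 were the other 2 below an unadjusted p of 0.05.

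Gfap, the filament protein that rises in reactive astrocytes, was not higher in any stressed group beyond its spread. It stood at 90.7, 60.2, 61.1, 68.8 and 74.6 CPM in unstressed control females and at 45.0, 45.4, 54.1, 57.2 and 63.1 in stressed control females. Mutant females stood at 64.4, 71.6, 50.3, 74.0 and 58.8 unstressed and at 61.3, 55.1, 60.7, 66.3 and 61.5 stressed. Control males stood at 82.1, 75.2, 61.7, 61.5 and 77.0 unstressed and lay between 51.8 and 84.9 with a median of 65.1 stressed, and mutant males stood at 67.7, 47.6 and 56.7 and at 81.4, 67.6, 65.7 and 29.4. Averaged over all groups, the log2 fold change was −0.13 ± 0.0922 (edgeR adjusted p = 0.720).

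**Figure D4:**
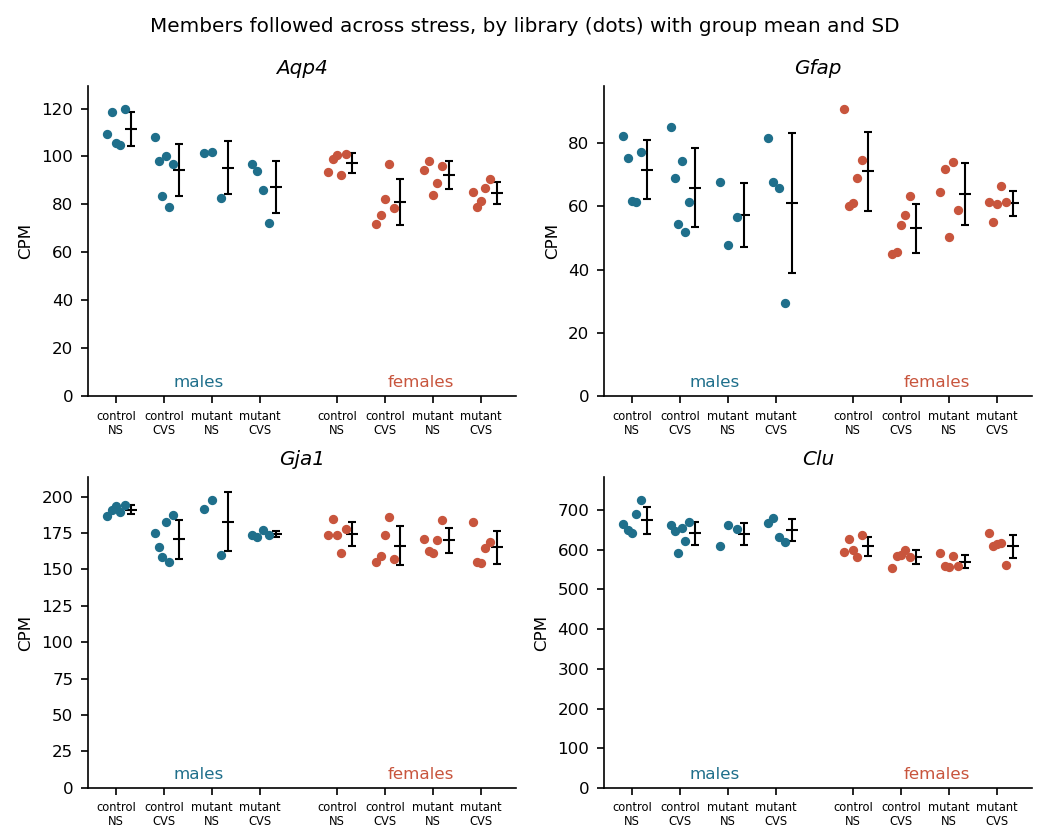
CPM of Aqp4, Gfap, Gja1 and Clu by library (dots) with the group mean and SD (black), for males (blue, left) and females (red, right); every vertical axis starts at 0. Aqp4 group means are lower under CVS within each genotype and sex, and Gfap has the widest spread, with 1 stressed mutant male at 29.4 CPM.

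Within control males stress gave 29 of 31 negative differences, with a median of −0.083 (all genes 0.00026). There were 9 lower and 0 higher at an unadjusted p under 0.05, against 3.79% and 3.60% of all genes. Of all genes 0.0116% were called lower and 0.00% higher after adjustment, and none of the 31 by edgeR, DESeq2 or limma voom. Gja1 stood at −0.16 ± 0.0492 (edgeR adjusted p = 0.432), S100b at −0.14 ± 0.0518, Aqp4 at −0.24 ± 0.0860 and Htra1 at −0.15 ± 0.0545. They stood at −0.17, −0.13, −0.28 and −0.15 without the 3 libraries of high Cdhr1, with a median over the 31 of −0.068. Of the markers of other cells, 10 of 10 endothelial and pericyte (median −0.14), 9 of 10 microglial (median −0.11) and 7 of 8 meningeal markers (median −0.27) were negative, with none called. Their part in the astrocyte differences was not tested. The mean summed level of pan-neuronal markers was 8922 CPM in unstressed and 9049 in stressed control males. For glutamatergic neuron markers it was 8589 and 8560, and for mature oligodendrocyte markers 1710 and 1671. Within mutant males 18 of 31 were negative (median −0.0067), 1 was lower and 0 higher at an unadjusted p under 0.05, against 1.61% and 1.77% of all genes. After adjustment 0.00% of all genes were called lower and 0.00% higher, and none of the 31 by edgeR, DESeq2 or limma voom. S100b stood at −0.18 ± 0.0659 (edgeR adjusted p = 1.000), Htra1 at −0.14 ± 0.0692, Slc4a4 at −0.087 ± 0.0544 and Mt3 at 0.15 ± 0.0914. Mt3 stood at 134.9, 161.2 and 165.2 CPM in unstressed and at 170.8, 175.3, 169.4 and 165.4 in stressed mutant males, without overlap. Leaving out 1 library in turn moved Mt3 between 0.056 and 0.20 and Slc4a4 between −0.14 and −0.040. With the 3 libraries of high Cdhr1 left out, S100b stood at −0.17, Htra1 at −0.12, Slc4a4 at −0.18 and Mt3 at 0.34. Without mutant CVS male replicate 1 they stood at −0.16, −0.15, −0.095 and 0.15. The median over the 31 was −0.075 without mutant NS male replicate 3, −0.044 without the 3 libraries and −0.020 without mutant CVS male replicate 1.

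Within control females 21 of 31 stress differences were negative, with a median of −0.057. Before adjustment 4 were lower and 0 higher at p under 0.05, against 4.26% and 4.46% of all genes, and after adjustment 0.00% of all genes were called lower and 0.00% higher. Htra1 stood at −0.21 ± 0.0459 (edgeR adjusted p = 0.150), Aqp4 at −0.26 ± 0.0585 (edgeR adjusted p = 0.154), Gfap at −0.42 ± 0.127 (edgeR adjusted p = 0.384) and Ppp1r3c at −0.17 ± 0.0688. DESeq2 called 2 of the 31, Aqp4 and Htra1, and limma voom none. The shares of all genes above are those of edgeR, and the share called by DESeq2 is not given here. Of the markers of other cells, 8 of 10 endothelial and pericyte (median −0.15) and 7 of 10 oligodendrocyte markers (median −0.11) were negative. The mean summed level of microglial markers was 484.6 CPM in unstressed and 486.5 in stressed control females. For pan-neuronal markers it was 8274 and 8246, and for glutamatergic neuron markers 8126 and 8293. The part of these cells in the astrocyte differences was not tested. Aqp4 was called by edgeR without control CVS female replicate 4, and Htra1 without control CVS female replicate 2, each the highest of its stressed group.

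Within mutant females the signs were mostly the other way. Of the 31 genes 23 were positive, with a median of 0.056, and at an unadjusted p under 0.05 7 were higher and 1, Aqp4, was lower, against 4.19% of all genes higher and 3.72% lower. Among all genes 0.00% were called lower and 0.00% higher after adjustment, and none of the 31 by edgeR, DESeq2 or limma voom. S1pr1, a receptor for sphingosine 1-phosphate that endothelial cells also express, stood at 0.19 ± 0.0608 (edgeR adjusted p = 0.387), Clu at 0.095 ± 0.0352, Slc7a10 at 0.20 ± 0.0774 and Apoe at 0.12 ± 0.0490. S1pr1 stood at 127.8, 122.3, 114.2, 117.1 and 129.0 CPM in unstressed and at 157.1, 142.9, 135.3, 138.5 and 123.9 in stressed mutant females, and at 128.0, 141.6, 135.1, 130.2 and 141.9 and at 123.5, 131.7, 131.3, 157.6 and 123.3 in the control females. Clu, a secreted chaperone, stood at 590.8, 559.1, 557.6, 582.9 and 559.8 CPM in unstressed and at 642.7, 609.6, 613.2, 616.2 and 561.4 in stressed mutant females, and at 595.1, 627.9, 600.4, 580.9 and 637.0 and at 552.8, 585.3, 586.5, 599.4 and 581.3 in the control females. Apoe stood at 1436, 1283, 1259, 1358 and 1319 CPM in unstressed and at 1629, 1386, 1403, 1424 and 1382 in stressed mutant females. Each of these pairs of mutant groups overlapped. Of 10 endothelial and pericyte markers 3 were negative here (median 0.099), and their part in the S1pr1 difference was not tested. Aqp4, Fgfr3, Gja1, Gjb6, Htra1 and Slc4a4 had a negative stress difference in all 4 settings.

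The remaining libraries of genes named in 2 or more comparisons were as follows. Kcnj10 stood at 185.6, 138.9, 201.2, 164.1 and 155.9 CPM in stressed control females and at 137.4, 164.7, 154.6, 173.0 and 148.3 in stressed mutant females. In males it stood at 180.2, 198.0, 184.9, 198.7 and 209.3 in unstressed controls, at 186.0, 231.9 and 195.2 in unstressed mutants and at 146.9, 161.4, 191.5 and 224.1 in stressed mutants, and lay between 172.8 and 241.8 with a median of 180.5 in stressed controls. The male groups of Kcnj10 overlapped widely. S1pr1 stood at 137.7, 170.2, 158.6, 163.5 and 181.2 CPM in unstressed control males, at 158.0, 160.0 and 128.7 in unstressed mutant males and at 148.1, 166.7, 139.4 and 153.8 in stressed mutant males, and lay between 139.0 and 160.5 with a median of 146.2 in stressed control males. Clu stood at 665.3, 648.6, 642.2, 689.8 and 723.9 CPM in unstressed control males, at 608.5, 661.3 and 651.2 in unstressed mutant males and at 667.1, 680.4, 630.9 and 620.1 in stressed mutant males, and lay between 591.1 and 669.1 with a median of 651.0 in stressed control males. Neither gene separated the male groups. Apoe stood at 1454, 1423, 1413, 1330 and 1457 CPM in unstressed and at 1315, 1423, 1468, 1608 and 1366 in stressed control females. In males Apoe stood at 1256, 1358, 1129, 1298 and 1458 in unstressed controls, at 1138, 1302 and 1181 in unstressed mutants and at 1350, 1338, 1198 and 1246 in stressed mutants, and lay between 1048 and 1333 with a median of 1209 in stressed controls. Apoe groups overlapped in both sexes. Mt3 stood at 167.4, 172.3, 146.0, 166.2 and 176.3 CPM in unstressed control males and lay between 127.0 and 174.3 with a median of 156.2 in stressed control males. In females Mt3 stood at 160.5, 170.3, 185.7, 164.5 and 190.6 in unstressed controls, at 181.9, 183.9, 187.4, 192.2 and 161.9 in stressed controls, at 171.9, 162.8, 153.7, 175.3 and 178.6 in unstressed mutants and at 207.3, 178.8, 181.6, 192.1 and 157.5 in stressed mutants. The female groups of Mt3 overlapped.

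**Figure D5:**
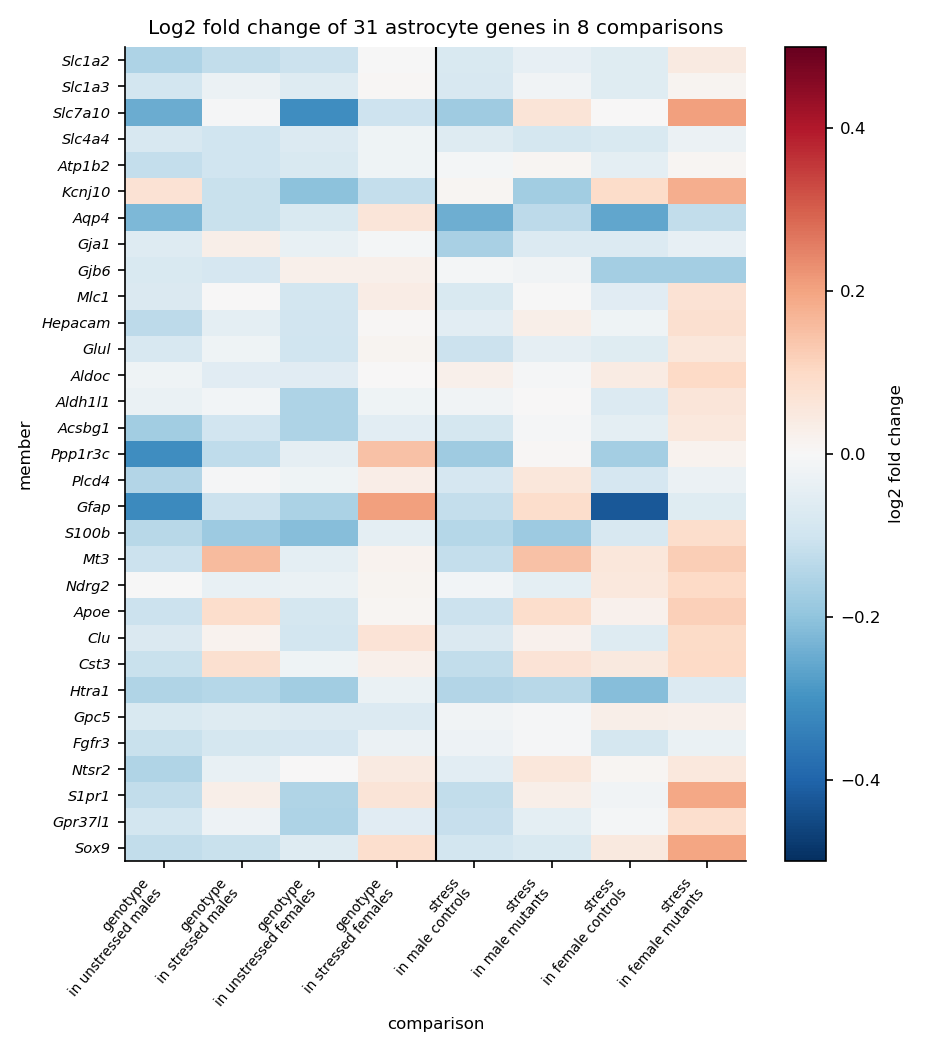
Log2 fold change (colour) of each of the 31 genes (rows) in 4 genotype and 4 stress comparisons (columns); blue is lower and red higher in mutants or in stressed mice. The columns for genotype in unstressed mice are almost wholly blue, with 30 of 31 genes negative in males and 29 in females, and the column for stress in mutant females is mostly red, with 23 positive.

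Whether stress acted differently in the mutants was tested as an interaction, the stress difference in mutants minus that in controls. No member passed in either sex or averaged over them by edgeR, DESeq2 or limma voom. The comparisons of stress in controls and of genotype in unstressed mice share the unstressed controls, so their signs are not independent. Averaged over the sexes 29 of 31 interaction terms were positive, with a median of 0.078 (all genes −0.0029). At an unadjusted p under 0.05, 6 were higher and 0 lower, against 2.82% higher and 2.14% lower among all genes, and 0.00% of all genes were called higher and 0.00% lower after adjustment. Clu stood at 0.12 ± 0.0395 and Slc7a10 at 0.22 ± 0.0787 (edgeR adjusted p = 0.917 each), S1pr1 at 0.18 ± 0.0733 and Ppp1r3c at 0.18 ± 0.0804. These 4 stood at 0.17, 0.21, 0.15 and 0.14 without the 3 libraries of high Cdhr1, with a median over the 31 of 0.056. Without mutant CVS male replicate 1 they stood at 0.12, 0.23, 0.19 and 0.16, with a median of 0.076.

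In females 30 of 31 interaction terms were positive, with a median of 0.098, and 4 were higher at an unadjusted p under 0.05, and 0 lower, against 2.09% and 1.92% of all genes. Clu stood at 0.16 ± 0.0498 (edgeR adjusted p = 1.00), S1pr1 at 0.21 ± 0.0858, S100b at 0.17 ± 0.0700 and Htra1 at 0.14 ± 0.0651. In males 25 of 31 were positive, with a median of 0.068, and 3 were higher at an unadjusted p under 0.05, and 0 lower, against 2.34% and 1.84% of all genes. Mt3 stood at 0.27 ± 0.116 (edgeR adjusted p = 0.995), Slc7a10 at 0.24 ± 0.111, Cst3 at 0.19 ± 0.0876 and Apoe at 0.19 ± 0.107. The share of all genes called after adjustment was 0.00% higher and 0.00% lower in females, and 0.00% and 0.00% in males. The male median rested on mutant NS male replicate 3, without which it was −0.00051. Without the 3 libraries of high Cdhr1 it was 0.023, with Mt3 at 0.41, Slc7a10 at 0.22, Cst3 at 0.22 and Apoe at 0.30, and without mutant CVS male replicate 1 it was 0.062.

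Whether the effects differed between the sexes was tested as the female minus the male difference, averaged over the other factor. No member passed by edgeR, DESeq2 or limma voom. For genotype 23 of 31 terms were positive (median 0.027), 2 of them and none of the negative ones at an unadjusted p under 0.05 against 4.05% higher and 3.96% lower among all genes. Ppp1r3c stood at 0.27 ± 0.0805 (edgeR adjusted p = 0.383), Ntsr2 at 0.11 ± 0.0568, Aqp4 at 0.16 ± 0.0829 and Slc1a2 at 0.080 ± 0.0487. For stress 24 were positive (median 0.046), 2 of them and none of the negative ones at an unadjusted p under 0.05 against 3.46% higher and 3.72% lower among all genes. S100b stood at 0.16 ± 0.0549 (edgeR adjusted p = 0.596), Sox9 at 0.21 ± 0.0976, Slc7a10 at 0.16 ± 0.0787 and Kcnj10 at 0.22 ± 0.108. Of all genes 0.00% were called higher and 0.00566% lower for genotype after adjustment, and 0.00% and 0.00% for stress. Without the 3 libraries of high Cdhr1 the genotype terms of Ppp1r3c, Ntsr2, Aqp4 and Slc1a2 were 0.23, 0.13, 0.093 and 0.015. The stress terms of S100b, Sox9, Slc7a10 and Kcnj10 were then 0.15, 0.23, 0.17 and 0.13. Without mutant CVS male replicate 1 the genotype terms, in the same order, were 0.29, 0.11, 0.18 and 0.079. The stress terms were then 0.15, 0.23, 0.15 and 0.17.

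Of 50 other astrocyte-enriched genes, 33 had a negative genotype difference averaged over all groups, with a median of −0.036, and 2 were called lower. Grin2c, an NMDA receptor subunit found on cortical astrocytes as well as in cerebellar granule cells, stood at −0.16 ± 0.0306 (edgeR adjusted p = 0.00219). Daam2, a regulator of Wnt signalling in glia, stood at −0.15 ± 0.0329 (edgeR adjusted p = 0.0127). At an unadjusted p under 0.05, 9 of the 50 were lower and 3 higher, where 6.12% and 5.09% of all genes were, which also holds for the genotype counts of the lists that follow. Grin2c was also called lower in unstressed females alone (−0.27 ± 0.0538, edgeR adjusted p = 0.0248). In control males 39 of the 50 had a negative stress difference, and Cbs, the first enzyme of transsulfuration, was called lower (−0.30 ± 0.0530, edgeR adjusted p = 0.0351). Calls of Grin2c, Daam2 and Cbs were not rerun without the 3 libraries of high Cdhr1, without single libraries or by other tools. How far they depend on these was thus not tested.

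Of 36 listed genes that mark reactive astrocytes, 32 were tested in the fit of all libraries, 17 were negative (median −0.013), and none passed. At an unadjusted p under 0.05, 3 were lower and 2 higher. Among these, the prostaglandin synthase Ptgs2, which neurons also express, stood at −0.19 ± 0.0550, the hyaluronan receptor Cd44 at 0.28 ± 0.0849, the cytokine receptor Osmr at −0.26 ± 0.0864 and the protease inhibitor Serpina3n at −0.26 ± 0.101. With stress 21 of the 32 were negative (median −0.069), none passed by edgeR's adjusted rule, and 7 were lower and 0 higher at an unadjusted p under 0.05, where 4.40% and 4.96% of all genes were. Osmr stood at −0.36 ± 0.0862 (edgeR adjusted p = 0.108).

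Of 16 genes by which astrocytes regulate or engulf synapses, 10 were negative for genotype (median −0.014) and none passed by edgeR. At an unadjusted p under 0.05, 4 were lower and 1 higher, with the proteoglycan Ncan at −0.064 ± 0.0192 and the engulfment receptors Axl and Megf10 at −0.098 ± 0.0300 and −0.13 ± 0.0428. With stress Sparc, a matrix protein that opposes synapse formation, stood at 0.12 ± 0.0293 (edgeR adjusted p = 0.108). Of 11 genes of glycogen and lactate metabolism, 9 were negative for genotype (median −0.024) and none passed by edgeR, with 1 lower and 1 higher at an unadjusted p under 0.05. The glucose transporter Slc2a1 stood at −0.14 ± 0.0442 and the lactate transporter Slc16a3 at 0.26 ± 0.0990.

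Pairs of members with shared roles were followed from animal to animal, after the group means were removed, in 18 males and 20 females. The 12 correlations are of log2 CPM, with permutation p-values adjusted over the 12. The glutamate transporters Slc1a2 and Slc1a3 varied together, with Pearson's r of 0.746 in males and 0.750 in females and Spearman's rho of 0.818 and 0.716 (permutation p 0.00146 and 0.00076, adjusted 0.00501 and 0.00498). Without the 2 libraries farthest from the median in the first gene of the pair, r was 0.705 and 0.664. Leaving out extremes of 1 gene narrows its range, which can by itself weaken r. The secreted lipoproteins Apoe and Clu gave an r of 0.789 and 0.740 and a rho of 0.814 and 0.788 (permutation p 0.00083 and 0.00167, adjusted 0.00498 and 0.00501), with r of 0.687 and 0.688 without the 2 farthest. These values share each library's depth and composition.

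Mlc1 and Hepacam, which form one membrane complex, gave an r of 0.814 in males and 0.535 in females and a rho of 0.831 and 0.600 (permutation p 0.00241 and 0.0124, adjusted 0.00578 and 0.0248). Without the 2 farthest libraries r was 0.673 and 0.493, with adjusted permutation p of 0.0698 and 0.0946, while rho was 0.762 and 0.556 with an adjusted permutation p of 0.0382 in both sexes, so Pearson's r alone lost the threshold. The endfoot channels Aqp4 and Kcnj10 gave an r of −0.663 in males (rho −0.641, permutation p 0.0161, adjusted 0.0275) and 0.0253 in females (rho −0.0060, permutation p 0.951). Without the 2 farthest libraries the male r was −0.399 and rho −0.488, with adjusted permutation p of 0.217 and 0.146. Since the libraries were picked by extreme Aqp4, this cannot tell whether the correlation rests on them. The connexins Gja1 and Gjb6 did not pass in males (r 0.0967, rho 0.156, adjusted permutation p 0.492) or females (r 0.468, rho 0.523, adjusted 0.122). Gfap and Vim, both intermediate filaments, did not pass either (r 0.354 and 0.297, rho 0.441 and 0.247, adjusted permutation p 0.122 and 0.278). Without the 2 farthest libraries r was 0.019 and 0.415 for the connexins, 0.425 and 0.234 for the filaments, and 0.260 for the female endfoot channels.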

How the data were processed

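RNA from the medial prefrontal cortex of 38 mice was measured by poly(A) RNA-seq with a strand-specific kit and 150-base paired-end reads, per the labels' protocols. The authors deposited raw read counts per gene. The submitters' processing notes name fastp 0.23.2, STAR 2.7.10b, featureCounts and the genome GRCm39. Which annotation was counted, and whether by strand, is not given in the sources used here; reads of overlapping antisense genes may thus be included. Gene identifiers were paired with symbols for 52029 of 57010 rows.

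From the counts, edgeR 4.0.16 (R 4.3.3) was used with TMM factors, filterByExpr (minimum count 10, minimum total 15) and robust quasi-likelihood fits. Males (17212 genes) and females (16435) were fitted separately with 4 groups each, and all 38 libraries together with 8 groups (17671 genes) for averages and sex differences. The p-values were adjusted by Benjamini-Hochberg over all genes, with a threshold of 0.05. Fold changes are log2 values ± standard error. CPM were scaled within a sex; levels per kilobase used GENCODE exon lengths on GRCm38, a different build. The members and lists were chosen with earlier results of these data known. Members past the threshold are named, or otherwise the 4 with the smallest p. Correlations used 100000 permutations within groups, two-sided. Alternatives were other normalizations, no filter, DESeq2 1.42.0, limma 3.58.1, 1 surrogate variable (sva 3.50.0), fewer groups and left-out libraries. Markers of other cells were counted for genotype; lists not described in the results gave medians of −0.0022 (glutamatergic neurons), −0.047 (oligodendrocyte precursors), 0.11 (meninges), 0.055 (choroid plexus), −0.16 (olfactory bulb), −0.087 (olfactory ensheathing cells) and 0.0056 (blood), with none called. The gene of the floxed allele and 1 further marker list are not reported here.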

Additional observations from a re-analysis of the deposited data

Results flagged for a closer look

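Each of 14 members was checked in each group of 4 to 6 libraries, which gave 98 sets of values. Of these, 3 held a library far from the others of its group, by the gap to its nearest neighbour relative to the group's range. Chance gives about 1 in 20. Apoe stood at 1629 CPM in mutant CVS female replicate 1, above the 1382 to 1424 CPM of the other 4. Kcnj10 stood at 127.1 CPM in mutant NS female replicate 1, below the 138.3 to 142.5 CPM of the others. S1pr1 stood at 157.6 CPM in control CVS female replicate 4, above the 123.3 to 131.7 CPM of the others.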

How the results depend on the processing

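No result reversed direction with its call under any alternative run. For genotype averaged over sex and stress, where 6 members were called, 2 were called without the 3 libraries of high Cdhr1, and 2 to 6 when 1 library was left out; limma voom called 5, without Slc1a2. Over 8 alternatives other than leaving out 1 library, Slc1a2 kept its call in 3 and Atp1b2 in 4. For stress averaged over sex and genotype, where 1 member was called, 2 were called with raw library totals, with DESeq2 and without the 3 libraries of high Cdhr1, 0 with limma voom or 1 surrogate variable, and 0 to 2 when 1 library was left out. For stress in female controls, where 0 were called, 2 were called with no filter on low counts and with DESeq2, and 0 to 1 when 1 library was left out. For genotype in unstressed females, where 0 were called, 3 were called with no filter (Slc7a10, S100b and Htra1), 2 with DESeq2, 2 with only the 2 groups compared (Slc7a10 and Kcnj10) and 0 to 1 when 1 library was left out. For stress in female mutants, where 0 were called, 1 was called with no filter (S1pr1). The shares of all genes called under these alternatives are not given here, and the cause of these changes was not tested. A median over the members counted as moved when it changed by at least the SD of single-library medians. That SD was 0.058 in males and 0.065 in females, and their mean was used for all libraries. By this rule medians moved only without mutant NS male replicate 3. When 1 library was left out, the median ranged from −0.075 to 0.032 for stress in male mutants and from −0.00051 to 0.10 for the interaction in males. Smaller medians can change sign without counting as moved. For genotype in stressed females the range was −0.031 to 0.034, and for the sex difference of genotype −0.0043 to 0.046. Without the 2 libraries farthest from the median, the correlation of Aqp4 with Kcnj10 in males was −0.399, and that of Mlc1 with Hepacam was 0.673 in males and 0.493 in females. Slc1a2 lost its genotype call without any one of 15 libraries, Atp1b2 without any one of 25, and Htra1 its stress call without any one of 23. None of these genes was near a count of 0, since the lowest count was 170, but counting noise weighs more on the genes of low counts. No paired analysis was possible because the labels give the groups no shared replicate numbers.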
